A study of Mus musculus with 50 samples.

Results

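Hippocampus of mice lacking the sphingosine 1-phosphate receptor S1P3 was compared with wild-type hippocampus on oligonucleotide arrays. The comparison holds 15 of the 50 samples of the series, the 5 labelled S1P3-KO hippocampus and the 10 labelled wild-type hippocampus, and was chosen by these sample titles alone. All mice were 8 weeks old. The wild-type group holds 5 males and 5 females and the S1P3-KO group 2 males (replicates 1 and 2) and 3 females (replicates 3, 4 and 5). The labels call the animals S1P3-knockout and the replicates biological, and give no strain, allele, littermate status or pooling, so the p-values measure the spread between these arrays. The rest of the series is neocortex of the same genotypes, and neocortex and hippocampus of mice deficient in S1P2. The design text lists group sizes in an order that names the S1P2-deficient mice in place of the S1P3-deficient ones, and the sample titles were followed.

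Sphingosine 1-phosphate is a lipid released from cells and carried in blood, and it acts on a family of 5 G protein-coupled receptors encoded by S1pr1 to S1pr5. S1P3, the product of S1pr3, couples to several G proteins, and in brain it is found on astrocytes among other cells. The design text states that S1P2-deficient mice have sporadic seizures between 4 and 7 weeks of age and that S1P3-deficient mice do not, so the S1P3-KO arrays also serve as a receptor knockout without seizures.

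The values are MAS5 signals, a background-corrected intensity per probe set on a linear scale, and differences are given as log2(signal + 30.7) in S1P3-KO minus wild-type, with the standard error of a limma fit over the 25 hippocampus arrays of 3 genotypes with sex as a covariate. Of 12488 probe sets 8534, for 6350 genes, were bright enough to test, and a gene stands by its brightest probe set. Adjusted p-values are Benjamini-Hochberg values over all 8534 probe sets, with a threshold of 0.05. The verbs rose and fell are used of probe sets past that threshold. Results are given with and without S1P3-KO hippocampus replicate 5 because its RNA controls stood apart. The controls compare signal at the 3' and 5' ends of Gapdh and beta-actin, and a high ratio goes with degraded or incompletely copied RNA.

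Averaged over both controls, the 3' end exceeded the 5' end by 4.46 log2 units in S1P3-KO replicate 5. It lay between 0.403 and 0.515 in the other 4 S1P3-KO arrays and between 0.261 and 1.20 in the 10 wild-type arrays. The groups differed by 0.744 with replicate 5 (exact two-sided permutation test, p = 0.367) and by -0.061 without it (p = 0.901). The median correlation of replicate 5 with the other hippocampus arrays was 0.850, against 0.926 to 0.950 for the other arrays compared here. On replicate 5, 913 genes lay more than 1 log2 unit from the wild-type mean, against 109 to 299 on the other S1P3-KO arrays. Averaged over all 6350 genes, replicate 5 lay at -0.155 from the wild-type mean, outside the wild-type range of -0.046 to 0.03. Removing this array turned the sign of the difference for 21.8% of genes. The labelled sexes fitted Eif2s3y, a gene of the Y chromosome, whose lowest signal in males was 630.5 and highest in females 107.8. The dentate gyrus markers Dsp, Lct and Il16 were brighter on each of the 15 hippocampus arrays than on any of the 15 wild-type and S1P3-KO neocortex arrays, and the other 7 of 10 tested dentate markers overlapped between the tissues.

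**Figure D1:**
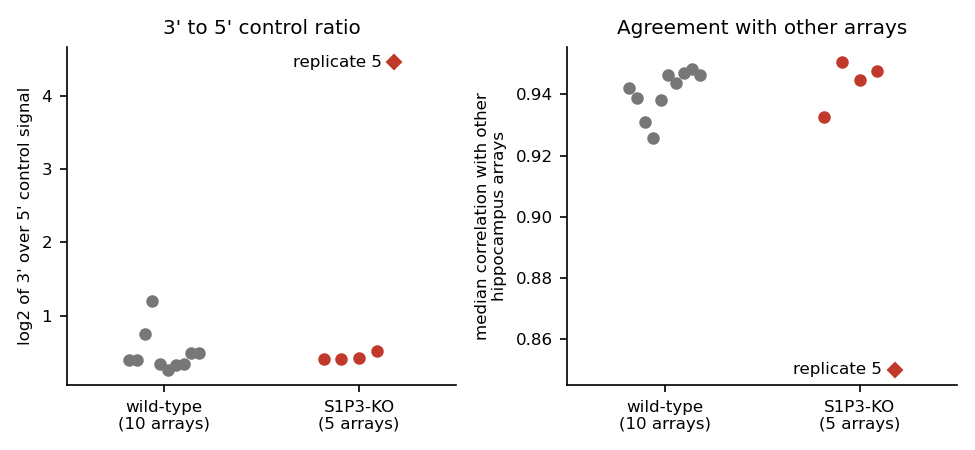
Left, excess of 3' over 5' control signal (log2, averaged over Gapdh and beta-actin), and right, median correlation with the other hippocampus arrays, for 10 wild-type (grey) and 5 S1P3-KO (red) arrays, 1 point per array. S1P3-KO replicate 5 (diamond) stands at a ratio of 4.46 and a correlation of 0.850, and the other 14 arrays lie at or below 1.20 and at or above 0.926.

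Gfap, Kdelr1 and Sdc4 were the only named genes past the threshold in either fit. With all 5 S1P3-KO arrays 3 of 8534 probe sets did (0.0352%): both probe sets of Gfap rose and Kdelr1 fell. None of the 3 passed when only wild-type and S1P3-KO arrays were fitted (limma, adjusted p = 0.176 and 0.18 for Gfap and 0.136 for Kdelr1, with 609 probe sets at an unadjusted p under 0.05). Nor did any probe set pass without wild-type replicate 1, 3 or 7 or without S1P3-KO replicate 4, with 735, 857, 765 and 965 probe sets at that unadjusted level in limma. Without S1P3-KO replicate 1 the 3 did not pass either (adjusted p = 0.132 to 0.137, limma). Without replicate 5, 2 did (0.0234%): Sdc4 and the dimmer Gfap probe set rose. At an unadjusted p under 0.05 there were 814 probe sets (9.54%) with replicate 5 and 655 (7.68%) without it, and 144 genes were higher and 138 lower at that level in both fits. All 5 S1P3-KO arrays lay above all 10 wild-type arrays for 8 probe sets (0.0937%) and below them for 6 (0.0703%). Without replicate 5 the counts were 18 (0.211%) and 11 (0.129%).

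Gfap rose on both of its probe sets. It encodes glial fibrillary acidic protein, the intermediate filament of astrocytes that is known to increase when these cells become reactive. Its brighter probe set gave 4758, 4098.1, 2994.2, 4707 and 7107.9 in S1P3-KO replicates 1 to 5, and in wild-type the lowest, median and highest signals were 2099.6, 2379.4 and 3263.2. Replicates 1, 2, 4 and 5 were above all wild-type arrays, while replicate 3 lay within their range. The mean signal was 4733 ± 1506 (SD, n = 5) against 2558 ± 465 (SD, n = 10), a log2 difference of 0.84 ± 0.15 (limma, adjusted p = 0.0273), and without replicate 5 it was 0.69 ± 0.13 (adjusted p = 0.0578). The dimmer Gfap probe set gave 1048.1, 911.5, 866.7, 1104 and 799.7 in S1P3-KO against 432.2 to 759.8 in wild-type, so the groups did not overlap. Its log2 difference was 0.64 ± 0.12 with replicate 5 (limma, adjusted p = 0.0379) and 0.69 ± 0.13 without it (adjusted p = 0.0477). Leaving out a further array in that fit raised the adjusted p to as much as 0.298, without S1P3-KO replicate 1 (limma).

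Sdc4 encodes syndecan-4, a heparan sulfate proteoglycan of the cell surface that takes part in adhesion. Its signals were 2232, 1990.8, 2003.7 and 2311.1 in S1P3-KO replicates 1 to 4 and 875.1 in replicate 5, against a wild-type range of 791.7 to 1605.7 with a median of 1208.7. Replicates 1 to 4 were above every wild-type array and replicate 5 was near the low end of the wild-type range. Without replicate 5 the log2 difference was 0.85 ± 0.13 (limma, adjusted p = 0.00593), and with it 0.59 ± 0.18 (adjusted p = 0.279). With replicate 5 kept, the difference passed when the 3' to 5' ratio was a covariate (0.80, adjusted p = 0.0197, limma) or the arrays were weighted by quality (0.78, adjusted p = 0.0318, limma). Without replicate 5 it did not pass when only wild-type and S1P3-KO arrays were fitted (0.85, adjusted p = 0.118, limma), or when S1P3-KO replicate 1 or 4 was left out too (0.79 and 0.85, adjusted p = 0.0585 and 0.0589, limma). Of 33 listed syndecans, glypicans and heparan sulfate enzymes 23 were tested, and 12 were higher in S1P3-KO with replicate 5 (median log2 difference 0.03) and 14 without it (0.06). Among them Sdc3, another syndecan, lay at -0.80 ± 0.27 without replicate 5, and Gpc1, a glypican, at 0.34 ± 0.15, both short of the adjusted threshold.

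Gjb6 encodes connexin 30, a gap junction protein of astrocytes. It was 1729.6, 2158.6, 1785.5, 1946.9 and 1875.7 in S1P3-KO and 1199.4 to 1663.5 in wild-type, with a median of 1343.5. The groups did not overlap, with or without replicate 5. The log2 difference was 0.43 ± 0.10, and the adjusted p from limma was 0.125 with replicate 5 and 0.207 without it. A second, dimmer Gjb6 probe set was also higher, by 0.34 ± 0.16, with overlap between the groups.

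Other astrocyte transcripts were split. Of 39 listed reactive astrocyte genes 19 were tested, among them Gfap and S1pr3 itself, and 10 were higher in S1P3-KO with a median log2 difference of 0.01, against -0.01 for all 6350 genes. Without replicate 5 there were 11 of 19, with a median of 0.02. Serpina3n and Stat3, which respond to injury signals in astrocytes, lay at -0.05 ± 0.13 and -0.01 ± 0.12 without replicate 5. Vim, encoding vimentin, another intermediate filament of reactive astrocytes, lay at 0.05 in the same fit with a wide wild-type range of 22.1 to 413. Of 21 homeostatic astrocyte genes 7 were higher with replicate 5 (median -0.06) and 9 without it (-0.04), and the median was -0.02 without replicate 1 and -0.12 without replicate 2 (replicate 5 kept). Gja1, the gene of connexin 43, the other gap junction protein of astrocytes, gave 4198.8 in replicate 1 and 7548.8 to 11702 in the other S1P3-KO arrays, against 7541.5 to 10084.3 in wild-type. Aqp4, the astrocyte water channel, ranged from 363 to 3416.9 in wild-type alone and from 89.3 to 2210.7 in S1P3-KO (-1.26 ± 0.60 with replicate 5 and -0.76 ± 0.60 without it), and the groups overlapped. Since the tissue is bulk RNA, more cells of a type and more RNA per cell cannot be told apart.

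Sparc encodes a secreted matrix protein made by astrocytes and vascular cells. Its signals were 2982.7, 2785.3, 3449.7, 2848.3 and 4418.1 in S1P3-KO and 1688.1 to 2748.1 in wild-type, with no overlap. The log2 difference was 0.54 ± 0.12 with replicate 5, the highest of the 5 arrays, and 0.43 ± 0.12 without it (limma, adjusted p = 0.108 and 0.291). Of 23 endothelial and pericyte genes 12 were higher with replicate 5 (median 0.03) and 13 without it (0.11). Ramp2, a partner of the adrenomedullin receptor in vessels, was 1678.9 to 3241.2 in S1P3-KO against 1429.6 to 1729 in wild-type, and only replicate 3 overlapped. Its log2 difference was 0.46 ± 0.11 with replicate 5 and 0.33 ± 0.10 without it. Slc2a1, the glucose transporter of the blood-brain barrier, was 0.47 ± 0.18 and 0.57 ± 0.18 higher in the respective fits, with overlapping groups.

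**Figure D2:**
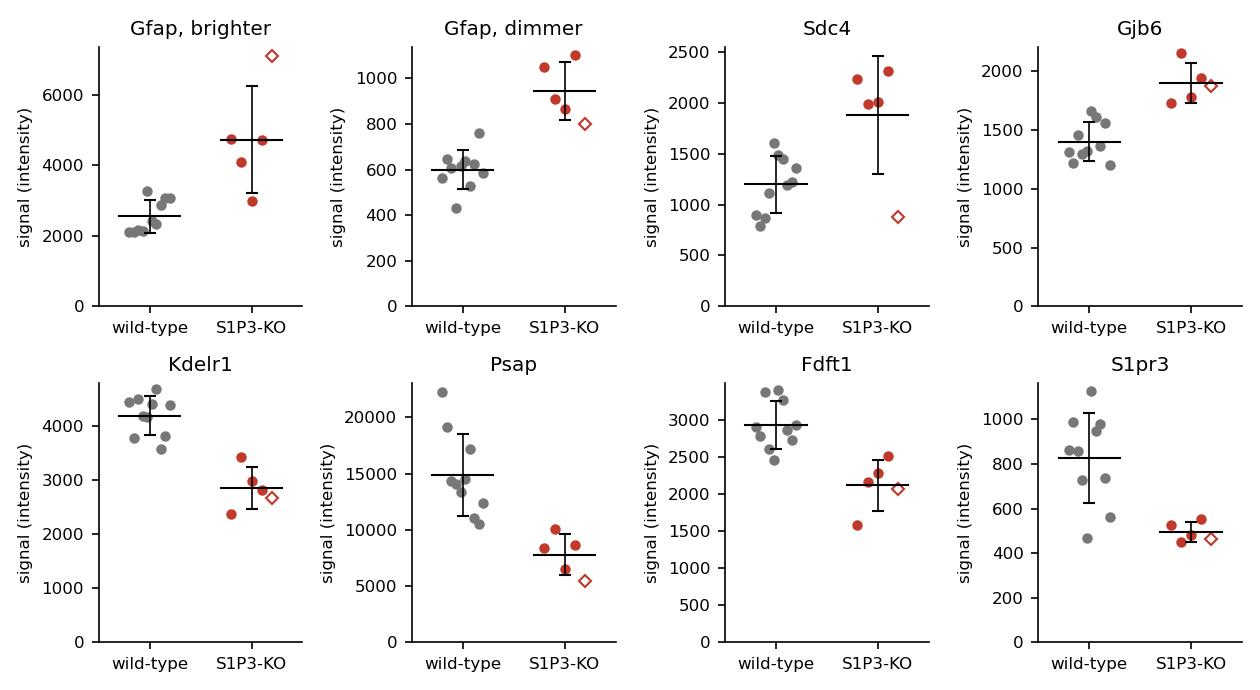
MAS5 signal (linear scale from 0) of 8 probe sets on 10 wild-type arrays (grey) and 5 S1P3-KO arrays (red), with replicate 5 as an open diamond, and group mean ± SD as black bars. The dimmer Gfap probe set and Gjb6 lie wholly above the wild-type range and Kdelr1 and Psap wholly below it, and Sdc4 does so only without replicate 5.

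Kdelr1 encodes a receptor in the Golgi that returns resident proteins carrying the KDEL signal to the endoplasmic reticulum. It gave 2377.8, 3415.4, 2972.4, 2818.9 and 2671.2 in S1P3-KO against a lowest, median and highest wild-type signal of 3574.2, 4281.8 and 4670.4. All 5 S1P3-KO arrays were below all 10 wild-type arrays. The mean was 2851 ± 384 (SD, n = 5) against 4185 ± 360 (SD, n = 10), and the log2 difference was -0.56 ± 0.10 with replicate 5 (limma, adjusted p = 0.0273) and -0.53 ± 0.11 without it (adjusted p = 0.0578). Kdelr1 fell on the full set of arrays, and the estimate hardly moved without replicate 5 while the adjusted p crossed the threshold.

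The genes of traffic between endoplasmic reticulum and Golgi were split. Of 42 listed, 35 were tested, and 19 were higher and 16 lower with replicate 5, with a median of 0.01. The list mean of each of the 5 S1P3-KO arrays lay within the wild-type range of -0.04 to 0.04. Kdelr2, a close relative of Kdelr1 with the same function, was 1075.2, 1031.7, 1036.2, 1147.9 and 1403 in S1P3-KO and 740.9 to 1099.2 in wild-type. It lay at 0.33 ± 0.12 with replicate 5 and 0.26 ± 0.12 without it, opposite in sign to Kdelr1, and did not pass the adjusted threshold. Gbf1, an exchange factor of the GTPase Arf that is needed for Golgi coats, lay at 0.30 ± 0.11 and 0.33 ± 0.12 in the respective fits.

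Chaperones of the endoplasmic reticulum, many of which carry the KDEL signal, were mostly on the higher side, with no member past the adjusted threshold. Of 23 tested members 16 were higher with replicate 5 (median 0.10) and 19 without it (0.16), and without wild-type replicate 7 the median was 0.07 (replicate 5 kept). At an unadjusted p under 0.05, 4 members were higher and 1 was lower in each fit of these 23, where 4.79% of all genes were higher and 4.76% lower with replicate 5, and 3.83% and 3.98% without it. Hspa5, the gene of BiP, the chief chaperone of this compartment, gave 6789.3, 8513.1, 6827.2, 5709.2 and 5927.5 in S1P3-KO against 4252, 4686.9 and 7481.4 (lowest, median and highest) in wild-type. All S1P3-KO arrays were above the wild-type median, and wild-type replicate 3 was above 4 of them. Its log2 difference was 0.46 ± 0.13 and 0.48 ± 0.14 in the fits with and without replicate 5 (limma, adjusted p = 0.246 and 0.312). Hsp90b1, the gene of GRP94, was 9524.2, 6881, 6345, 6240.1 and 7580.2 against 4297.2 to 6958.9, a difference of 0.42 ± 0.11 with replicate 5 (limma, adjusted p = 0.187). Creld2, a secreted protein induced by stress of this compartment, was 647.1 to 881.3 against 443.6 to 656.6. Its difference was 0.35 ± 0.13 with replicate 5, the highest array. P4hb, a disulfide isomerase, was lower on its brighter probe set (-0.92 ± 0.30) and not on the other (0.05 ± 0.22), both with replicate 5. The list mean was above the wild-type range of -0.14 to 0.09 in S1P3-KO replicates 1, 2 and 3 (0.21, 0.20 and 0.18), inside it in replicate 4 (-0.04) and below it in replicate 5 (-0.28), the array of the high 3' to 5' ratio.

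Hspa5, Hsp90b1 and Creld2 share a promoter element that is known to bind factors of the unfolded protein response. The endoplasmic reticulum stress response element is CCAAT, 9 bases of any kind and CCACG, here searched on both strands in the RefSeq promoters of build GRCm38.p6, which run from 250 bases before each gene's start to 50 bases after it. It was found in 39 of 32851 promoters (0.119%) and in 7 of the 20 list members that had a promoter entry (Canx, Creld2, Dnajc3, Ero1b, Hsp90b1, Hspa5 and Pdia6). The 230 bases before the start of these 3 genes are shown because they hold these matches, whose fixed bases are in capitals. They lie at chr2:34771860-34772089 (plus strand) for Hspa5, chr10:86705445-86705674 (minus strand) for Hsp90b1 and chr15:88819416-88819645 (plus strand) for Creld2.
Hspa5: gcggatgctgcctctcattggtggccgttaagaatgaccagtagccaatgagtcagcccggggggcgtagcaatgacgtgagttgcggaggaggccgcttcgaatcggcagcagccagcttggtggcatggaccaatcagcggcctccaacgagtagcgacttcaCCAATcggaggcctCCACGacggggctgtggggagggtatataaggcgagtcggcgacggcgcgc
Hsp90b1: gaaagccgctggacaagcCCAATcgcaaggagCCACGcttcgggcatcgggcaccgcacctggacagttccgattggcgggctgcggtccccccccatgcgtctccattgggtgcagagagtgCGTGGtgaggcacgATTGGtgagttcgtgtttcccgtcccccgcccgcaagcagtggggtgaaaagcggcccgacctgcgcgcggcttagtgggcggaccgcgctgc
Creld2: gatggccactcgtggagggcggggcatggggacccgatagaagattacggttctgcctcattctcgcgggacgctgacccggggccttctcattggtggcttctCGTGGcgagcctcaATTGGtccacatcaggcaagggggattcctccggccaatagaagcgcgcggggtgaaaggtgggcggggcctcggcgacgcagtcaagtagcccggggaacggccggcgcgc
The match begins 65 bases before the start in Hspa5 and 126 in Creld2, where it is on the other strand. Hsp90b1 holds 2, at 212 and, on the other strand, at 107. The other 4 members with the element, Canx, Dnajc3, Ero1b and Pdia6, had log2 differences of 0.14, 0.17, 0.12 and 0.31 without replicate 5, none past the adjusted threshold, and Pdia6 read 40.3 on replicate 5 against 1391.8 to 2208.5 on the other S1P3-KO arrays.

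Enzymes of cholesterol synthesis were mostly on the lower side, with no member past the adjusted threshold. Of 17 tested members 13 were lower with replicate 5 (median -0.15) and 14 without it (-0.23), and 4 were lower at an unadjusted p under 0.05 in each fit while 0 were higher, where 4.76% of all genes were lower with replicate 5 and 3.98% without it. Without S1P3-KO replicate 1 the median was -0.09 with replicate 5 and -0.12 without it. The list mean was -0.21, -0.17, -0.13, -0.23 and -0.33 in S1P3-KO replicates 1 to 5, against -0.14 to 0.10 in wild-type, so that replicates 1, 2, 4 and 5 were below the wild-type range. Fdft1, the gene of squalene synthase, the first enzyme committed to sterols, gave 1580.9, 2160.6, 2278.7, 2514.6 and 2063.5 in S1P3-KO and 2458.9, 2885 and 3406.5 (lowest, median and highest) in wild-type. Only replicate 4 overlapped the wild-type range. Its log2 difference was -0.48 ± 0.11 with replicate 5 (limma, adjusted p = 0.0967) and -0.47 ± 0.11 without it (adjusted p = 0.200). Mvd, which acts earlier in the pathway on mevalonate diphosphate, was 609.7, 430.3, 400.6, 147.3 and 217.4 against 454 to 862.7, a difference of -0.78 ± 0.23 with replicate 5. Cyp51, the lanosterol demethylase, was 306.3 to 416.7 against 326.8 to 560.2, a difference of -0.33 ± 0.13 with replicate 5. Nsdhl was lower on its brightest probe set (-0.83 ± 0.24 with replicate 5, which read 206.2, and -0.42 ± 0.13 without it), while its other 2 probe sets lay at 0.01 and 0.06 without replicate 5. Genes of the SREBP pathway and of cholesterol transport were split, with 7 of 16 higher with replicate 5 and 9 without it. The sterol element TCACNCCAC was found in the promoter window of 1 of 14 enzymes of the list with an entry (Hmgcs1) and in 408 of 32851 promoters (1.24%), with either strand searched.

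Psap, the precursor of the saposins, which help lysosomal enzymes break down sphingolipids, was lower. It gave 8359.6, 10036.4, 6480, 8629.8 and 5480.7 in S1P3-KO and 10519.4, 14212.4 and 22206.7 (lowest, median and highest) in wild-type. The groups did not overlap, and the log2 difference was -0.92 ± 0.20 with replicate 5 (limma, adjusted p = 0.081) and -0.81 ± 0.20 without it (adjusted p = 0.207). The other 2 Psap probe sets pointed the same way, at -0.36 ± 0.14 and -1.51 ± 0.51 with replicate 5 and at -0.34 ± 0.16 and -0.91 ± 0.45 without it. The last of these read 12 on replicate 5 and 275.7 to 521.3 on the other S1P3-KO arrays. Neu1, the lysosomal sialidase, was 472.1, 762.3, 527.1, 587.6 and 459.3 against 594.2 to 1006.4, a difference of -0.37 ± 0.13 with replicate 5. These were the only 2 members at an unadjusted p under 0.05 among the 19 tested genes of sphingosine 1-phosphate and sphingolipid metabolism, of which 10 were higher and 9 lower in each fit. That count is near the 9.54% of all probe sets at this level with replicate 5 and the 7.68% without it. Sgpl1, the lyase that destroys sphingosine 1-phosphate, lay at 0.03 ± 0.15, and Asah1, the lysosomal ceramidase that frees sphingosine, at 0.03 ± 0.17.

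The targeted gene itself was dimmer without being absent from the arrays. S1pr3 gave 526.6, 451.4, 480.7, 551.9 and 464.2 in S1P3-KO and 470.3, 859.8 and 1129.1 (lowest, median and highest) in wild-type. The S1P3-KO arrays were all at the low end, but 1 wild-type array was as low. The mean was 495 ± 42.7 (SD, n = 5) against 827 ± 204 (SD, n = 10), a fold of 0.599, and the log2 difference was -0.69 ± 0.18 with replicate 5 (limma, adjusted p = 0.164) and -0.65 ± 0.19 without it (adjusted p = 0.312). Where the probes lie relative to the deleted sequence is not given in the sources used here, so this level does not check the genotype by itself. In S1P2-KO hippocampus S1pr3 was 637.4 to 1414.3, and the difference of S1P3-KO from S1P2-KO was -0.82 ± 0.18. The other receptors overlapped between the groups. S1pr1 was 245.7 to 481.7 in S1P3-KO and 204 to 527 in wild-type, at 0.07 ± 0.20. S1pr2 was 465.7 to 885.7 and 373.9 to 962.2, at 0.02 ± 0.20. Lpar1, a receptor for the related lipid lysophosphatidic acid, lay at 0.24 ± 0.13, with replicate 1 the highest of the 15 arrays at 1204.9. S1pr4 was too dim to test.

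Gnb1, a G protein beta subunit, was 8276.1, 7359.2, 6640.3, 9070.3 and 18158.1 in S1P3-KO against 2892.9 to 9106 in wild-type. Replicate 5 was the highest array, and the groups overlapped. The log2 difference of 0.86 ± 0.22 became 0.63 ± 0.20 without replicate 5 (limma, adjusted p = 0.162 and 0.396). Its other probe sets lay at 0.12 ± 0.17 and 0.47 ± 0.10 without replicate 5. The second of these read 3927.6 to 4851.4 on replicates 1 to 4, above the wild-type range of 2480.1 to 3596.2. On replicate 5 it read 495.7, below that range, so the probe sets of Gnb1 disagreed on this array.

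Genes of neuronal activity were mostly on the lower side, with no member past the adjusted threshold. Of 30 tested immediate early and activity genes 24 were lower with replicate 5 (median -0.26) and 21 without it (-0.22), and 8 and 5 members were lower at an unadjusted p under 0.05, against 4.76% and 3.98% of all genes. The list means of S1P3-KO replicates 1 to 4 (-0.29, -0.25, -0.13 and -0.15) were inside the wild-type range of -0.34 to 0.31, and only replicate 5 (-0.47) was below it. Egr1, a transcription factor induced by synaptic activity, gave 1473, 2111.8, 2527.3, 2522.7 and 3425.6 in S1P3-KO against 2349.8, 3540.6 and 6409.5 (lowest, median and highest) in wild-type. Fos, the classical marker of activated neurons, gave 390.5, 329.8, 643.3, 416.9 and 834.9 against 356.5, 876.6 and 2642.7. All S1P3-KO arrays were below the wild-type median for both genes, and the groups overlapped because wild-type itself ranged widely. The log2 differences were -0.61 ± 0.20 for Egr1 and -0.93 ± 0.35 for Fos with replicate 5, and -0.72 ± 0.21 and -1.11 ± 0.37 without it (limma, adjusted p = 0.295 and 0.421). Jun, a partner of Fos, was 1181.8 to 1610.4 against 1299.9 to 2215.5, at -0.34 ± 0.11 with replicate 5. In S1P2-KO hippocampus, which shares the wild-type arrays, Egr1 and Fos differed from wild-type by -0.47 and -1.23, and the tests of S1P3-KO against S1P2-KO gave -0.14 (p = 0.488, limma) and 0.30 (p = 0.393, limma).

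Metallothioneins and genes that respond to glucocorticoids were mostly on the higher side, again with no member past the adjusted threshold. Of 21 tested members 16 were higher in each fit, with medians of 0.29 with replicate 5 and 0.25 without it. Without S1P3-KO replicate 2 the median was 0.17 (replicate 5 kept). The list mean was 0.31, 0.37 and 0.12 in replicates 1 to 3 and 0.02 in both replicates 4 and 5, against -0.11 to 0.17 in wild-type, so 2 of 5 arrays were above the wild-type range, and both are the males. Mt3, a metallothionein made in brain that binds zinc, was 44978, 34933.8, 32074.1, 44944.7 and 56711.7 in S1P3-KO and 20314.3, 27354.6 and 51592.5 (lowest, median and highest) in wild-type. All S1P3-KO arrays were above the wild-type median, and wild-type replicate 5 was above 4 of the 5. Its log2 difference was 0.54 ± 0.16 with replicate 5 and 0.44 ± 0.16 without it (limma, adjusted p = 0.246 and 0.474). Mt1 and Mt2, the metallothioneins found in most tissues, lay at 0.39 ± 0.15 and 0.39 ± 0.13, and at 0.25 ± 0.15 and 0.28 ± 0.13 without replicate 5, the brightest array for both. Fkbp5, a cochaperone strongly induced by glucocorticoids, was 4338.4 in replicate 2 and 2064.1 to 3288.4 in the others, against 1243.5 to 2808.3.

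Oligodendrocyte transcripts leaned upward without replicate 5. Of 13 tested members 8 were higher with replicate 5 (median 0.16) and 11 without it (0.18), and without replicates 3 and 5 the median was 0.06. Myrf, the transcription factor that switches on myelin genes, gave 1574.2, 1363.5, 1462.9, 1402.8 and 1162.3 in S1P3-KO and 805.5 to 1329.3 in wild-type, at 0.40 ± 0.11 and 0.45 ± 0.12. Ndrg1, a gene of myelinating cells, was 4651.3, 4924.2, 4571.2, 4471 and 5257.1 against 3186.6, 3594.2 and 4616.3, at 0.38 ± 0.09 and 0.34 ± 0.09, and its second probe set lay at 0.37 ± 0.13. Their adjusted p-values with replicate 5 were 0.217 and 0.108 (limma). The list mean was above the wild-type range of -0.22 to 0.13 in replicates 1, 2 and 3 (0.22, 0.21 and 0.27), 0.001 in replicate 4 and -0.11 in replicate 5. Mag, a myelin adhesion protein, showed how far replicate 5 could depart: it was 3285.3 to 4303 in the other S1P3-KO arrays and 407.8 in replicate 5, against 2213.7 to 3629 in wild-type.

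**Figure D3:**
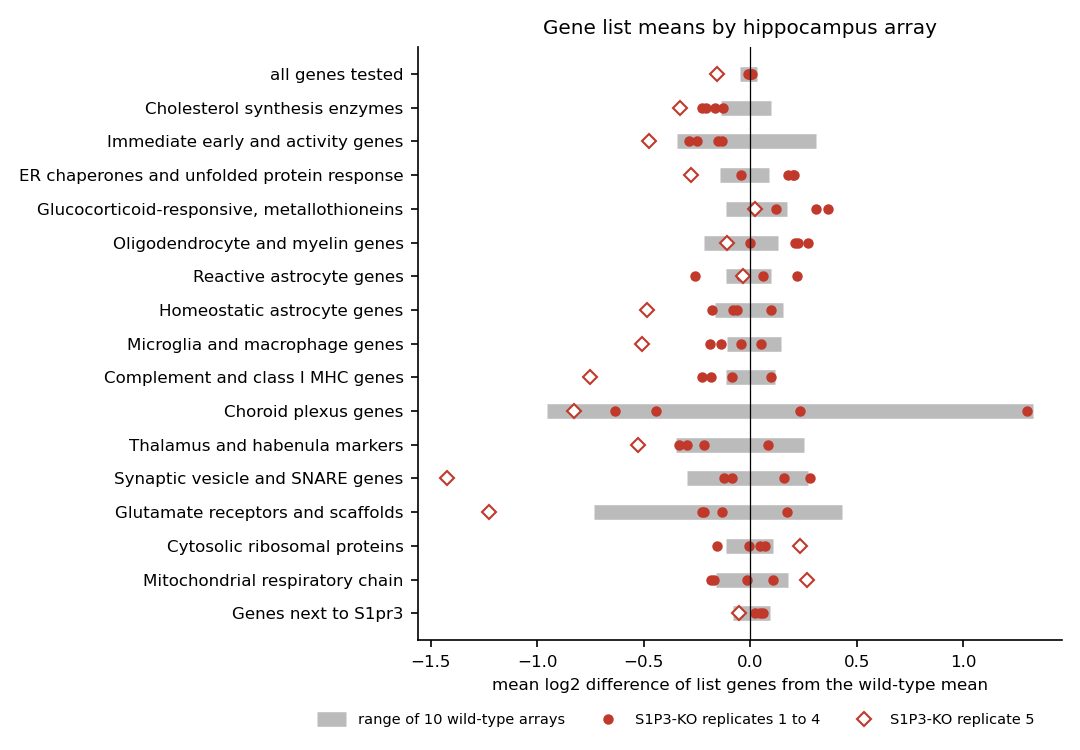
Mean log2 difference from the wild-type mean over the tested genes of 16 gene lists and of all genes, for each S1P3-KO array (points, replicate 5 as an open diamond), with the range of the 10 wild-type arrays as grey bars. Replicate 5 lies below the wild-type range for synaptic vesicle genes (-1.42) and glutamate receptors (-1.23), where the other 4 arrays lie near or inside it.

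Replicate 5 stood furthest from the wild-type mean for synaptic vesicle genes, glutamate receptors, microglia, ribosomal proteins and the respiratory chain, and other S1P3-KO arrays departed less. Over all 6350 genes the means of S1P3-KO replicates 1 to 4 lay between -0.009 and 0.008, against -0.046 to 0.03 in wild-type. Replicate 5 lay below that range, at -0.155. Its list mean was below the wild-type range for 20 of 36 lists and above it for 4, against 8 and 5 for replicate 1, 5 and 4 for replicate 2, 3 and 2 for replicate 3, and 3 and 1 for replicate 4. For synaptic vesicle genes it was -1.42 against a wild-type range of -0.30 to 0.27, and without replicate 5 the list had 14 of 24 members higher and a median of 0.06, in place of 9 and -0.20. That median lay between -0.02 and 0.09 when a further array was left out. For microglia 3 of 16 members were higher with replicate 5 and 6 without it, with medians of -0.11 and -0.09. On this list replicates 1, 4 and 5 (-0.135, -0.188 and -0.506) were all below the wild-type range of -0.108 to 0.143. C1qa, a complement subunit made by microglia, was 61.2 in replicate 5 and 3245.6 to 3565.1 in the other S1P3-KO arrays, against 2000.9 to 3958 in wild-type. C1qc, encoding its partner chain, was 943.5 in replicate 5 and 2658.1 to 3233.1 in the others. Csf1r, the receptor that microglia need to survive, was instead highest in replicate 5 at 3042.3, and the S1P3-KO arrays of 2314.7 to 3042.3 overlapped the wild-type range of 1763.3 to 2515.5. Nr1d1, a repressor of the circadian clock, was 2526.4 in replicate 5 and 460.7 to 702.7 in the others, against 351.9 to 772.8. Cytosolic ribosomal proteins and the respiratory chain lay above the wild-type range on this array (0.24 and 0.26). Replicate 2 lay below it for ribosomal proteins (-0.154), and replicates 1 and 2 did for the respiratory chain (-0.184 and -0.169). Cox6c, a subunit of cytochrome oxidase, lay at 0.29 ± 0.08 with replicate 5, which read 30110.4, and at 0.19 ± 0.06 without it.

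**Figure D4:**
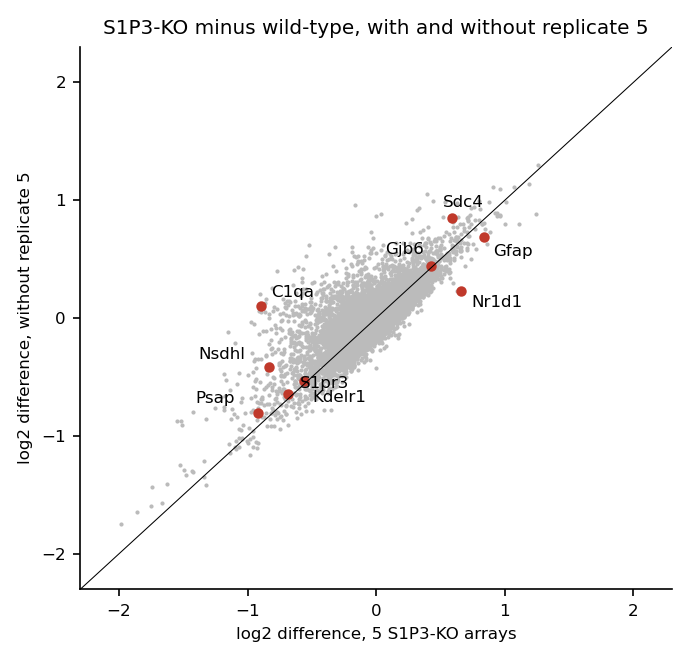
Log2 difference of S1P3-KO from wild-type for 8534 tested probe sets (grey) with all 5 S1P3-KO arrays (horizontal) and without replicate 5 (vertical), with the line of equal values. Kdelr1 and S1pr3 lie near the line, Sdc4 above it, and C1qa moves from -0.90 to 0.11.

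Some neuronal transcripts varied several-fold within wild-type. Camk2a, the gene of a kinase abundant at excitatory synapses, ranged from 81.9 to 1704.5 in wild-type, and in S1P3-KO was 874.3 in replicate 2 and 57.3 to 250.3 in the others. Nos1, neuronal nitric oxide synthase, ranged from 88.6 to 622.1 and was 460 in replicate 2 and 34.9 to 182.7 in the others. Kcnma1, a calcium-activated potassium channel, ranged from 626.1 to 4147.5 and was 2398.3 in replicate 2 and 314.7 to 1191.6 in the others. In all 3 genes replicate 2 was the highest S1P3-KO array and stood in the middle of the wild-type range, and replicate 5 was the lowest. The differences of -1.53 ± 0.62, -1.13 ± 0.48 and -1.10 ± 0.50, which include replicate 5, did not pass the adjusted threshold.

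Markers of neighbouring tissue were measured because dissection can carry it along. Choroid plexus genes were split (7 of 14 higher, median -0.01), with list means from -0.96 to 1.33 in wild-type and from -0.83 to 1.30 in S1P3-KO. Ttr, the transport protein that defines this tissue, was 7107.3, 246.8, 21826.8, 249.5 and 452.1 in S1P3-KO and 27.3 to 33070.8 in wild-type, so both groups held arrays with much and with little of it. Thalamus and habenula markers were mostly on the lower side, 8 of 10 with replicate 5 (median -0.18) and 7 of 10 without it (-0.11). The median was -0.28 without replicate 1 (replicate 5 kept), and without replicate 5 it was -0.18, -0.19 and -0.07 when replicate 1, 3 or 4 was left out too and -0.17 without wild-type replicate 3. The list means of S1P3-KO replicates 1 to 4 (0.081, -0.299, -0.215 and -0.332) were inside the wild-type range of -0.349 to 0.254. Only replicate 5 (-0.527) was below it. Lef1, a transcription factor of thalamic neurons and of vascular cells, was 959.8, 217.4, 246.3, 616.5 and 589.1 in S1P3-KO and 637.4 to 1192.1 in wild-type, a difference of -0.997 ± 0.233 with replicate 5 (limma, adjusted p = 0.122). Replicates 2 to 5 were below the wild-type range and replicate 1 inside it. Prkcd and Zic1, other markers of thalamus and habenula, lay at -0.25 ± 0.13 and -0.46 ± 0.25 with replicate 5, the lowest S1P3-KO array for Prkcd. The summed signal of the 10 thalamus markers was 5038.8 to 8355.8 in S1P3-KO, with 6933.9 as the lowest without replicate 5, against 7139.6 to 9920.4 in wild-type. Its part in the lower Lef1 was not tested. In the dentate gyrus list 8 of 10 were higher with replicate 5 and 6 without it. Lct and Calb1, which mark its granule cells, lay at 0.38 ± 0.16 and 0.22 ± 0.10 with replicate 5 and at 0.30 ± 0.17 and 0.19 ± 0.10 without it.

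Several further genes were among the 12 higher and 12 lower with the smallest p without replicate 5. Nrep, a protein of regenerating neurons, was 2563.6, 2657.1, 3187 and 3180.9 in replicates 1 to 4, all below the wild-type range of 3314.6 to 5335.1, and 4105.4 in replicate 5, at -0.49 ± 0.10 without replicate 5 (limma, adjusted p = 0.0958). Emd, the gene of the nuclear envelope protein emerin, was 646.4 to 986.3 against 927.4 to 1865.3, at -0.72 ± 0.15 with replicate 5 (adjusted p = 0.080, limma). Trappc3, a subunit of a vesicle tethering complex, was 773.3 to 1648.3 against 1351.3 to 2428.7, at -0.64 ± 0.13 with replicate 5 (adjusted p = 0.080, limma), its lowest array. Mok, a protein kinase, was 186.8 to 260.8 against 271.3 to 650.2, at -0.77 ± 0.19 with replicate 5, and the groups did not overlap. Each of these 4 was lower in S1P3-KO in both fits, as the choice of these genes required. Crb3, a polarity protein, and Clcn5, a chloride transporter of endosomes, lay at -0.83 ± 0.18 and -1.05 ± 0.26 without replicate 5, and a second, dimmer Clcn5 probe set at -0.08 ± 0.34. Cdan1, a nuclear protein linked to an inherited anaemia, lay at -0.51 ± 0.13 without replicate 5. Mapt, the gene of the microtubule protein tau, was lower on 2 of its probe sets (-0.43 ± 0.11 and -0.19 ± 0.09) and higher on the other (0.15 ± 0.10), all without replicate 5. Among the higher genes Alox12b, a lipoxygenase, was 429.2 to 622.5 against 252.8 to 409.1 with no overlap, at 0.63 ± 0.14 with replicate 5. Ddx5, an RNA helicase, lay at 0.36 ± 0.10 and Gabpb1, a subunit of a transcription factor for mitochondrial genes, at 0.50 ± 0.14 without replicate 5. Ccdc130 and 9530068E07Rik lay at 0.80 ± 0.22 and 0.35 ± 0.09 without replicate 5, the lowest S1P3-KO array for both.

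Genes close to S1pr3 on its chromosome were compared because a targeted locus can carry along sequence of the strain it was made in. Of the 40 nearest measured genes on either side, 40 were higher and 40 lower, with a median of 0.005. At an unadjusted p under 0.05 there were 7 higher and 3 lower with replicate 5 and 4 higher and 3 lower without it, of the 80. Over all genes 4.79% were higher and 4.76% lower with replicate 5, and 3.83% and 3.98% without it, so the counts without replicate 5 were near the share over all genes. The 3 nearest on either side (Ogn, Iars, Spin1, Shc3, Sema4d and Gadd45g) lay between -0.64 and 0.10 with replicate 5, none at that level. Spock1, a proteoglycan of the brain matrix and 39 measured genes away, was 2389.2, 4665.7, 4282.4, 3168.3 and 4485.2 in S1P3-KO and 852.4 to 2944 in wild-type. Replicate 1 alone lay inside the wild-type range, and the difference was 0.93 ± 0.23 and 0.89 ± 0.25. Sncb, the gene of beta-synuclein, lay at 0.48 ± 0.16 and 0.53 ± 0.17, Eci2, an enzyme of fatty acid oxidation, at 0.26 ± 0.09 and 0.24 ± 0.09, and Idnk, a gluconate kinase, at -0.52 ± 0.18 and -0.47 ± 0.19. On the separate neocortex arrays Spock1, Sncb, Eci2 and Idnk lay at 0.626, 0.582, -0.064 and -0.076. Whether carried sequence had a part in these values was not tested.

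The same genotype contrast in neocortex used separate arrays, 5 S1P3-KO and 10 wild-type. There Sdc4 was 1096.1 to 1961.2 against 911.7 to 1265.4 (log2 difference 0.62 ± 0.13), and Gfap on its brighter probe set was 1230.5 to 2528.9 against 657.8 to 1367.8 (0.51 ± 0.16). Cholesterol enzymes were lower for 14 of 17 (median -0.28) and metallothioneins and glucocorticoid-responsive genes higher for 15 of 21 (median 0.26). Kdelr1 was 3257.4 to 4298.6 against 3227.6 to 4291.5 in neocortex (0.01 ± 0.09), and Psap lay at -0.14 ± 0.16. The difference between tissues was tested in a model of all 50 arrays, which does not pair the tissues. For Kdelr1 it was -0.57 ± 0.14 with replicate 5 (limma, unadjusted p = 0.000139, adjusted p = 0.875) and -0.54 ± 0.14 without it, so it did not pass adjustment over all probe sets. No probe set did in either fit (0 of 8534, 0%), and at an unadjusted p under 0.05 there were 438 (5.13%) and 289 (3.39%). For Gfap the tissue difference was 0.33 ± 0.22 and for Sdc4 -0.04 ± 0.22, or 0.23 ± 0.18 without replicate 5.

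**Figure D5:**
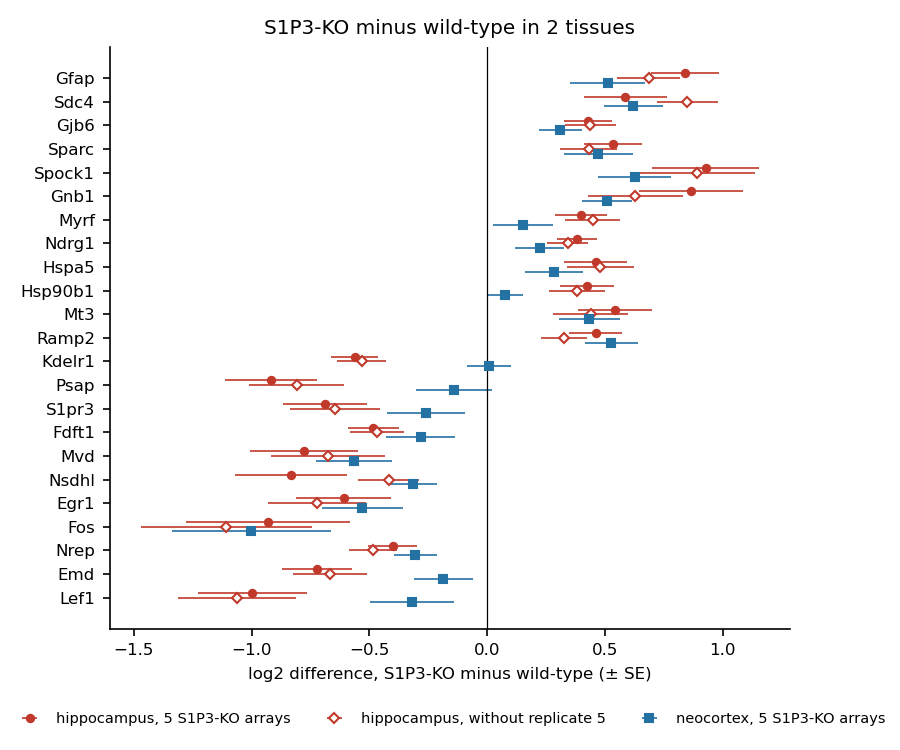
Log2 difference ± SE of S1P3-KO from wild-type for 23 genes in hippocampus with all 5 arrays (red circles), in hippocampus without replicate 5 (open diamonds) and in neocortex (blue squares). Gfap, Sdc4, Spock1, Mvd and Fos lie on the same side in both tissues, and Kdelr1 lies below 0 in hippocampus and at 0.01 in neocortex.

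The S1P3-KO and S1P2-KO hippocampus arrays were also compared directly, a contrast that does not use the wild-type means. No probe set passed adjustment (0 of 8534, 0%, with replicate 5 and without it), and 982 (11.5%) and 567 (6.64%) had an unadjusted p under 0.05 in limma. The brighter Gfap probe set was 0.51 ± 0.15 higher in S1P3-KO than in S1P2-KO, where it was 2806.2 to 3849.7. Those S1P2-KO signals lay in the upper part of the wild-type range of 2099.6 to 3263.2 or above it. Kdelr1 was -0.41 ± 0.10 and Lef1 -1.21 ± 0.23. Sdc4, which was 1466.5 to 1930.7 in S1P2-KO, lay at 0.09 ± 0.18 with replicate 5 and 0.35 ± 0.13 without it. Its S1P2-KO signals too lay in the upper part of the wild-type range of 791.7 to 1605.7 or above it. High signals of Gfap and Sdc4 were thus not particular to S1P3-KO. The smallest adjusted p-values of Gfap, Kdelr1, Lef1 and Sdc4 in the limma fit of this contrast stayed above 0.05.

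Sexes were compared within the genotype contrast, although S1P3-KO holds only 2 males. With replicate 5, a female, 4 probe sets passed the threshold for a genotype difference that differed between sexes (0.0469%), and without it 0 did (0%), with 1214 (14.2%) and 759 (8.89%) at an unadjusted p under 0.05 in limma. Dennd5a, a regulator of Rab GTPases, was 4332.9 and 4827 in the 2 male S1P3-KO arrays and 7008.3, 6510.4 and 8270.3 in the female ones, against 6567 ± 320 (SD, n = 5) in wild-type males and 5851 ± 622 (SD, n = 5) in wild-type females. Uqcr10, a subunit of respiratory complex III, was 5937.8 and 7225 in the male and 10660.5, 9044.4 and 13732.9 in the female S1P3-KO arrays, against 10394 ± 1080 and 8105 ± 1090 (SD, n = 5 each) in wild-type males and females. Both were below the wild-type mean in males and above it in females.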

How the data were processed

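Total RNA of 50 tissue samples was hybridised to Affymetrix MG_U74Av2 arrays, per the labels. The values are the authors' deposited MAS5 signals, an intensity per probe set on a linear scale; MAS5 is named in the submitters' processing notes, and its version is not given in the sources used here. Each array had already been scaled to a common trimmed mean. The signals were taken to log2(signal + 30.7), the 10th percentile of all deposited signals. The 66 control probe sets and those with a mean under 132.6, the 30th percentile, were left out. Of the 12488 probe sets 10855 name 1 gene, 396 several and 1237 none in the platform annotation, and 10839 matched RefSeq. Fits used limma 3.58.1 in R 4.3.3 with sex as a covariate and Benjamini-Hochberg adjustment, and were checked on simulated data. The number of arrays limits the precision.

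The members, gene lists and tests were chosen with earlier results of these data known. Named genes are the S1P receptors, those past the threshold, the 12 higher and 12 lower with the smallest p without replicate 5 and the same sign with it, up to 4 members of each list by p, and the neighbours of S1pr3 at an unadjusted p under 0.05. Gpc1, Gja1, Aqp4, Vim, Fkbp5, Mag, Sgpl1, Asah1, Canx, Dnajc3, Ero1b, Pdia6, Dennd5a, Uqcr10 and Ttr were added after their values were seen. Alternatives covered the pseudocount, the filter, normalization, covariates, array weights, the replicate block and each array left out. Replicate numbers were not used to pair the genotypes, as numbers 3, 4 and 5 differ in sex. Deviations of same-numbered wild-type and S1P3-KO hippocampus arrays correlated at 0.00367, -0.0552, -0.152, -0.324 and -0.292. Results for 1 gene list and some of its members are not reported here.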

Additional observations from a re-analysis of the deposited data

Results flagged for a closer look

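Single arrays stood apart from their group in 18 of 156 groups of values checked, by the gap to the nearest other array relative to the range of the group, where chance gives about 1 in 20 for unselected values. The groups were the control ratio and genes named here, chosen in part by values that include replicate 5. Their share was therefore not tested against that rate. S1P3-KO replicate 5 accounted for 10 of the 18. Its 3' to 5' ratio was 4.46 (log2), and it was low for Sdc4 (875.1), Nsdhl (206.2), C1qa (61.2) and C1qc (943.5) and high for Mt1 (38212.2), Mal (6181.2), Gnb1 (18158.1), Cox6c (30110.4) and Nr1d1 (2526.4). These are the brightest probe sets, and a dimmer Gnb1 probe set was low on this array (495.7). Other S1P3-KO arrays stood apart for Lpar1 (replicate 1, 1204.9), Camk2a (replicate 2, 874.3) and Idnk (replicate 4, 444.8). Among wild-type arrays, replicate 5 was high for Mt3 (51592.5) and Nr1d1 (772.8), replicate 3 high for Hspa5 (7481.4), replicate 2 low for Csf1r (1763.3), and replicate 4 high in the 3' to 5' ratio (1.2).

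The genotype difference differed between the sexes for 4 probe sets with replicate 5 in the limma fit. Female minus male was 0.827 for Dennd5a (adjusted p = 0.0416), 1.105 for Uqcr10 (adjusted p = 0.0431), and 1.05 and 1.585 for 2 probe sets that are unnamed here (adjusted p = 0.0416 and 0.0201). Without replicate 5 the values were 0.73, 0.944, 0.967 and 1.587, and none passed the threshold (smallest adjusted p = 0.0546). S1P3-KO males were 2 arrays.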

How the results depend on the processing

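With all S1P3-KO arrays the 3 probe sets past the threshold became 0 when only wild-type and S1P3-KO arrays were fitted (609 at an unadjusted p under 0.05, limma), 1 after removal of the 3 arrays whose control ratio exceeded 1 (wild-type replicate 4, S1P2-KO replicate 7 and S1P3-KO replicate 5), and 0 with the replicate block (807 unadjusted). Leaving out 1 array at a time gave 0 to 12. Leaving out a wild-type array gave 0 for replicates 1, 3 and 7 (735, 857 and 765 unadjusted) and 1 for replicates 5 and 10. Leaving out a knockout array gave 1, 7, 12 and 0 for numbers 1, 2, 3 and 4 (965 unadjusted for the last). Without S1P3-KO replicate 5 the 2 became 1 with no filter, 4 with a filter at the 50th percentile, 0 with only wild-type and S1P3-KO arrays (583 unadjusted), 1 after removal of the same high-ratio arrays, 7 with the ratio as a covariate, 1 with array weights and 14 with the replicate block. Leaving out a further array gave 0 to 5, namely 1 for wild-type replicates 1, 2, 3, 4, 6 and 7, 5 for wild-type replicates 8 and 9, and 1, 5 and 0 for knockout numbers 1, 3 and 4 (531 unadjusted for the last). With the replicate block and sex in 1 model, the genotype estimate rests on S1P3-KO replicates 1 and 2 alone. In numbers 3, 4 and 5 only the S1P3-KO array is female, so sex absorbs their difference. The block estimates are therefore the same with and without replicate 5 (Kdelr1 -0.372, Sdc4 1.124), and this setting cannot show what that array does to them. The sex comparison had 4 calls, 0 without S1P3-KO replicate 5 and 1 with no filter. The 3' to 5' ratio difference of 0.744 was -0.061 without replicate 5. The comparisons with neocortex and with S1P2-KO hippocampus gave 0 calls in each setting run. Hippocampus and neocortex arrays of a genotype share number and sex, and their deviations correlated between -0.27 and 0.225 (over 0.1 in 12 of 25 pairs). The 2 S1P3-KO males both gave -0.27, because deviations from a mean of 2 arrays mirror each other. These correlations cannot tell whether the numbers pair the tissues and the labels do not say, so the main model did not use the numbers. With these numbers as a random replicate block, an alternative chosen after seeing the data, the neocortex comparison had 0 calls (605 unadjusted, limma) and, without S1P3-KO replicate 5, 0 calls (393 unadjusted), and Kdelr1 lay at -0.57 ± 0.13 (adjusted p = 0.543). Apart from the changed numbers of arrays or probe sets, the cause was not tested.

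Directions held for the called genes. With replicate 5 the brighter Gfap probe set passed in 20 of 29 settings (log2 0.66 to 0.995), the dimmer in 17 (0.58 to 0.72), Kdelr1 in 17 (-0.65 to -0.37), Sdc4 in 4 (0.48 to 1.12) and S1pr3 in 0 (-0.76 to -0.62). Without replicate 5 they passed in 8, 12, 6, 25 and 0 of 28 settings. The ends of 0.72 for the dimmer Gfap probe set, -0.37 for Kdelr1 and 1.12 for Sdc4 came from the replicate block, which rests on S1P3-KO replicates 1 and 2. Of 788 alternatives for single genes and list medians 705 stayed on their side of the threshold or within the spread. Of the rest 52 lost the threshold, 18 gained it and 13 moved. A reversed sign was scored for single genes only, and 0 reversed. List medians near 0 could change sign within the spread. That of reactive astrocyte genes with replicate 5 was 0.013, and -0.028 at a pseudocount of 100.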
